A study of Mus musculus with 22 samples.

Results

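Clustered stretches of constant distal H3K27ac were described in mouse G1ER (G1E-ER4) cells, and 96 such stretches with 330 constituent regions were found among 4515 stitched stretches. H3K27ac ChIP-seq peaks from 10 lists were merged where they touched, which gave 24299 regions, of which 13217 held a peak in all 10 lists. The 5197 of these that lay 2 kb or more from every protein-coding transcription start site (TSS) of GENCODE M21 were joined when the gap between them was at most 12.5 kb. Stretches with 3 or more regions were kept. The members were thus chosen by the presence of H3K27ac peaks, their position and their spacing, and these values are given as a description. Of the 4515 stretches, 3971 held 1 region, 448 held 2, 69 held 3, 16 held 4, 7 held 5 and 4 held 6.

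G1ER cells are an erythroid progenitor line that lacks endogenous GATA1 and carries GATA1 fused to the ligand-binding domain of the estrogen receptor, so that β-estradiol releases the fusion protein into the nucleus and the cells mature. All groups, those at 0 h included, were this 1 line with the same fusion protein, grown with stem cell factor and erythropoietin. Differentiation was induced with 100 nM β-estradiol. H3K27ac and H3K4me3 were profiled at 0, 2, 6, 12, and 24 h with 2 replicates each, and CTCF at 0 and 24 h with 1 list each, 22 peak lists in all. The study describes its replicates as independent experiments, and the p-values measure the spread between these lists.

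H3K27ac is an acetyl mark laid down by CBP and p300 at active enhancers and promoters, whereas H3K4me3 is strongest at promoters and is found at lower levels at some active enhancers. Enhancers that lie close together along the chromosome and carry much H3K27ac are often called super-enhancers, and many lie near genes that define a cell type. CTCF binds a long DNA motif, stops loop extrusion by cohesin, and often marks the borders of chromatin loops. In erythroid cells, GATA1 binds enhancers together with TAL1, frequently at a CTG followed at a fixed distance by a GATA site.

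The name super-enhancer rests on ranked ChIP signal, and the peak lists hold no read counts, so that part of the label could not be checked and the depth behind each value is unknown. Within each list, peaks were ranked by the deposited score. The median peak of the constituents stood at the 42.2 to 48.7 percentile across the 10 lists, against 39.8 to 44.9 for stretches of 1 region, and it was higher than in stretches of 1 region in 9 of 10 lists. Constituent peaks were also longer, with a median of 2461 to 2767 bp per list against 1931 to 2199 bp, in 10 of 10 lists. Both traits were shared with stretches of 2 regions, whose peaks had a median of 2375 to 2662 bp and the 41.5 to 45.2 percentile, each above 1-region stretches in 10 of 10 lists. The constituents were therefore close to the middle of each list by score, and the members are called clustered stretches here. No H3K27ac peak in any list was longer than 8973 bp. The 10 lists together held 1479 peaks of 7 to 7.5 kb, 677 of 8 to 8.5 kb, 209 of 8.5 to 9 kb and 0 of 9 to 10 kb. Whether longer enriched stretches were left out of the lists was not tested, and such a stretch could be missing or appear broken.

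The cell identity was checked with H3K4me3 within 2 kb of marker TSSs. Of 10 erythroid markers, 6 (including Klf1, Epor, and Tfrc) had a peak in all 10 lists and 3 (Alas2, Nfe2, and Gfi1b) in 9, while Tal1 had none in any list. The longest H3K4me3 peak of each list was 8843 to 9200 bp. Whether longer H3K4me3 peaks were left out of the lists was not tested, so a missing peak need not mean a missing mark. None of 6 lymphocyte or 4 other markers had a peak in any list. Of 6 megakaryocyte markers, Itga2b and Gp1ba had a peak in all 10, as did Spi1 and Cebpe of 6 granulocyte and macrophage markers. No mast cell marker of 6 did, although Ms4a2 had one in 9 lists and Cpa3 and Hdc in 7 each.

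Close to the limits of the rule, the largest gap joined was 12494 bp and the smallest gap not joined was 12502 bp. The nearest constituent lay 2097 bp from a TSS, and the constant region just outside that limit lay at 1995 bp. The summed region length had a median of 11636 bp (4668 to 19937 bp) in the 69 stretches of 3 regions and 7223 bp in the 448 stretches of 2, of which the longest reached 17702 bp.

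To show sequence inside constituents, 100 bases are printed around a TAL1-GATA composite, CTGNNNNNNNNNGATA, in 7 stretches. They are examples, and the sites found in the same way at Klhl25, Sgms1, Fcgr3, Tex14, Gpd2, and Incenp are not printed. Each is the composite nearest the middle of the bases of a constituent that were covered in all 10 lists. Sequences were read from GRCm38.p6 (mm10) on the strand of the motif, 5′ to 3′, with the 16 bases of the composite in capitals. The composite asks only for the letters GATA at its end. At Zfp217 and Ccnd3 these letters are not part of a GATA site as defined for the motif counts below. The Zfp217 site lies at chr2:170193779-170193878 (minus strand, between protein-coding genes), the Cradd site at chr10:95289920-95290019 (plus strand, intron of Cradd), and the Dennd1a site at chr2:38132296-38132395 (minus strand, intron of Dennd1a). The Fignl1 site lies at chr11:11835420-11835519 (plus strand, intron of Ddc), the Igf1r site at chr7:67973761-67973860 (plus strand, intron of Igf1r), the Ccnd3 site at chr17:47523140-47523239 (minus strand, intron of Ccnd3), and the Cbfa2t3 site at chr8:122719887-122719986 (plus strand, intron of Gm20388).
Zfp217: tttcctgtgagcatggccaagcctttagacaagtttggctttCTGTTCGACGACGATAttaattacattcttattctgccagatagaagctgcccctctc
Cradd: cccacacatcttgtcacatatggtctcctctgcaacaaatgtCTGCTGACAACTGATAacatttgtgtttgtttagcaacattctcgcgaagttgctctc
Dennd1a: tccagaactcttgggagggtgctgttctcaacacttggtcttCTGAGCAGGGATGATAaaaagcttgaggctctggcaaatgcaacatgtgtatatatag
Fignl1: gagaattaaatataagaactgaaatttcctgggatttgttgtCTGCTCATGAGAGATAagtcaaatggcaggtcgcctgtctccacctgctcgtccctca
Igf1r: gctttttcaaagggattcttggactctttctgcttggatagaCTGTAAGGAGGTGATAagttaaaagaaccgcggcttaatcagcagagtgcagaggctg
Ccnd3: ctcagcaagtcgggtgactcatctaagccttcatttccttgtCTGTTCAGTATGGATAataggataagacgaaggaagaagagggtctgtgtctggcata
Cbfa2t3: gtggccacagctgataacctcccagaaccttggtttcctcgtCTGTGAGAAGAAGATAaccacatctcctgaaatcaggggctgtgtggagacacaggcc
Of the 96 stretches, 69 held a composite in the longest run of most widely shared bases of at least 1 constituent, 25 in those of 2 or more, and 4 in those of every constituent. These counts rise with the length scanned and were not made for stretches of 1 or 2 regions. Windows of equal length are compared further below. A match is a description of the sequence and not a measure of binding.

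To show the sites at the borders, 30 bases are printed around the CTCF core, CCNNNAGNNGGC, in CTCF peaks within 5 kb of an edge. The 12 bases of the core are in capitals and each site is given on the strand of its motif. Both edges are shown for Tex14, Icam2, and Kif2c, which had CTCF peaks at both edges at both times, and the left edge for Fignl1 and Ccnd3. The sites lie at chr11:11788585-11788614 (minus strand, intron of Fignl1) for Fignl1, chr17:47516419-47516448 (minus strand, intron of Ccnd3) for Ccnd3, chr11:87432267-87432296 (minus strand, intron of Tex14) and chr11:87469351-87469380 (minus strand, intron of Tex14) for Tex14. Those of Icam2 lie at chr11:106418769-106418798 (plus strand, intron of Ern1) and chr11:106442620-106442649 (minus strand, intron of Ern1), and those of Kif2c at chr4:117189655-117189684 (minus strand, between protein-coding genes) and chr4:117210503-117210532 (minus strand, between protein-coding genes).
Fignl1 left edge: cttctgttgCCACTAGGGGGCgagcgcctc
Ccnd3 left edge: ccacagaggCCAGAAGAGGGCatcagatct
Tex14 left edge: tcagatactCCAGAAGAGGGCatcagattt
Tex14 right edge: tcagacagaCCAGAAGAGGGCgtcagatct
Icam2 left edge: ggcttttgcCCACCAGGGGGCagtatgtta
Icam2 right edge: tcaaatacaCCAGAAGAGGGCaccagatct
Kif2c left edge: gccgagctgCCGCCAGAGGGCagtgcagaa
Kif2c right edge: gtgggctgaCCACCAGGGGGCagtacaaat
The Ccnd3 site, both Tex14 sites and the right Icam2 site carry the same 12 bases, which are counted below with the CTCF peaks.

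The clustered stretches were 14701 to 59700 bp wide, with a median of 25518 bp. Constituents took up a median of 47.3% of the span (23.0% to 87.9%), and the longest constituent held a median of 41.7% of the summed constituent length. The 234 gaps between constituents had a median of 5823 bp and were as short as 129 bp. Constituents had a median merged length of 3562 bp (923 to 8825 bp), against 2844 bp for the regions of 1-region stretches. A median of 54.8% of a constituent's merged length was covered in all 10 lists, close to the 52.1% in 1-region stretches, so the part of each element shared by all lists was similar in both.

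Stretches are named here by the gene with the nearest protein-coding TSS, without a claim that the gene is their target, and a letter is added where a gene names more than one. The stretch near Zfp217, which encodes a zinc finger transcriptional repressor, had 6 regions over 59145 bp (chr2:170171374-170230518), 28696 bp from the TSS and between genes. The Cradd stretch had 6 regions over 44339 bp (chr10:95254884-95299222) inside the gene, which encodes a death-domain adaptor protein. The Pdia4 stretch had 6 regions over 51415 bp (chr6:47738800-47790214) between genes. Pdia4 encodes a protein disulfide isomerase of the endoplasmic reticulum. The Klhl25 stretch had 6 regions over 59700 bp (chr7:75749800-75809499) and overlapped Akap13, which encodes a kinase anchoring protein.

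Among the stretches of 5 regions, that in Dennd1a (chr2:38123365-38178050), a gene for a Rab35 exchange factor, had a summed constituent length of 27859 bp, the longest of the 96. The Sgms1 stretch (chr19:32147247-32188279) lay inside the gene for sphingomyelin synthase 1. The Fignl1 stretch (chr11:11788199-11838859) overlapped Fignl1 and Ddc and was 1 of 3 with a protein-coding TSS between its constituents. The Fcgr3 stretch (chr1:171071540-171104291) lay 6605 bp from the TSS of Fcgr3, which encodes an IgG Fc receptor. The Tex14 stretch (chr11:87435617-87472478) lay inside the gene. The Gpd2 stretch (chr2:57180499-57222983) was 14695 bp from the TSS of the mitochondrial glycerol-3-phosphate dehydrogenase gene.

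**Figure D1:**
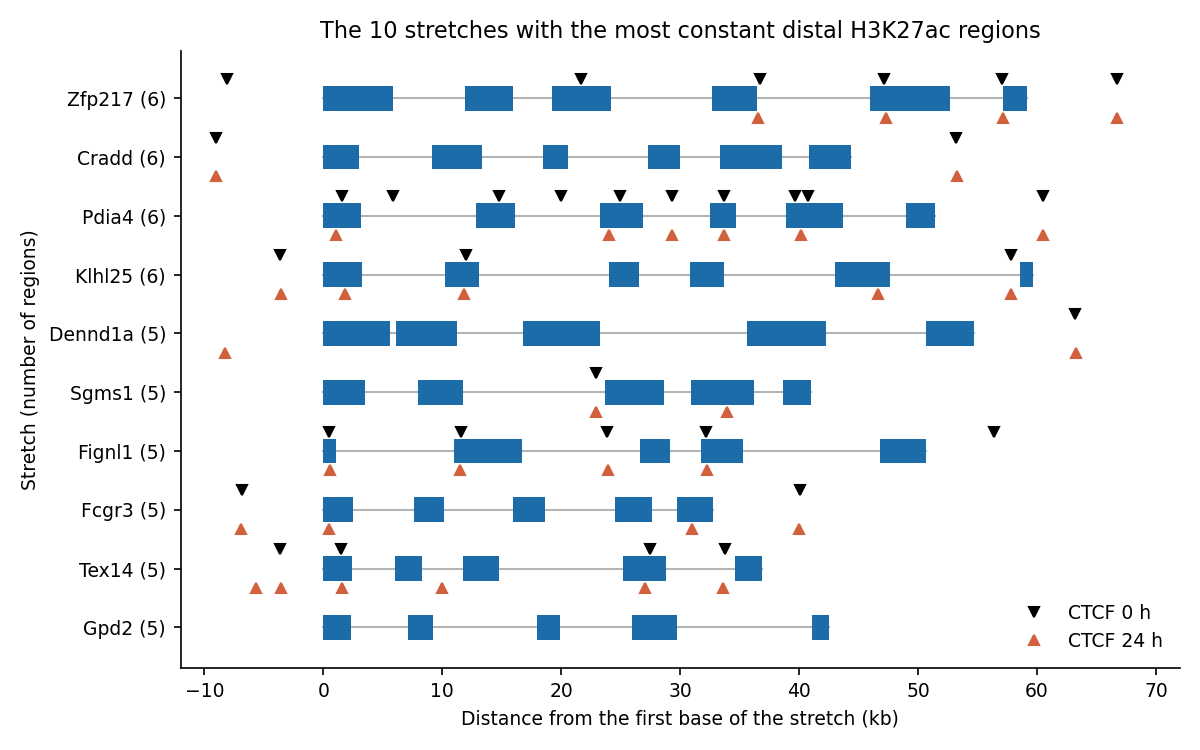
Map of the 10 stretches with the most regions, with the distance from the first base of the stretch in kb on the x axis and 1 stretch per row (number of regions in parentheses). Blue bars are constituents, black and orange triangles are CTCF peak midpoints at 0 and 24 h within 10 kb of the span. The Pdia4 stretch holds CTCF peaks along its length, while the Gpd2 stretch has none in the plotted window.

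Of the 96 stretches, 50 overlapped no protein-coding gene (52.1%, Wilson 95% interval 42.2% to 61.8%), 34 lay within 1 gene (35.4%) and 12 touched a gene without lying in it. By constituent, 191 of 330 (57.9%, 52.5% to 63.1%) lay wholly between genes, against 489 of 896 (54.6%, 51.3% to 57.8%) for 2-region and 1932 of 3971 (48.7%, 47.1% to 50.2%) for 1-region stretches. Exons were touched by 44 of 330 constituents (13.3%, 10.1% to 17.4%) by 16.2% (13.9% to 18.7%) of the regions of 2-region stretches, and by 19.9% (18.7% to 21.2%) of the single regions. The intervals cover counting error only. The nearest TSS was a median of 22016 bp away for clustered stretches and 21051 bp for 1-region stretches. For 20 of the 96 no TSS lay within 50 kb of the span, and for 10 none lay within 100 kb.

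Genes of erythroid and other blood cell lists were looked up beside the clustered stretches, without a test of the shares. Of 147 listed genes, 5 (3.40%) had a TSS within 50 kb of a clustered stretch, while 147 of 21924 protein-coding genes (0.670%) did. The lists were chosen with earlier results of these data known, so no conclusion is drawn from these shares. The 5 listed genes were Cbfa2t3 and Zeb2 of 37 erythroid and stem cell transcription factors, Fth1 of 25 heme and iron genes, and Ccnd3 and Igf1r of 31 genes of cytokine signaling, cycle, and survival. None of 26 membrane and surface genes, 10 globin genes, or 18 mast cell and megakaryocyte genes did. Cbfa2t3 encodes ETO2, a corepressor of TAL1 and GATA1 complexes, and its stretch (chr8:122708094-122737607) lay 8985 bp upstream of the TSS, in Gm20388. Ccnd3, the gene for cyclin D3, held a stretch of 4 regions (chr17:47519660-47544202) within the gene, 14419 bp from the nearest TSS. Igf1r, the gene for the IGF1 receptor, likewise held a stretch of 4 regions (chr7:67972092-68013091). Zeb2, a zinc finger E-box repressor gene, held a stretch of 3 regions (chr2:45066793-45088474). The TSS of Fth1, which encodes the ferritin heavy chain, lay 21550 bp from a stretch between genes (chr19:9919419-9959048) that is named for Incenp, whose TSS is nearer.

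Each constituent was chosen for an H3K27ac peak in all 10 lists, so the total covered length of the stretches is given as a description. The 96 spans were covered over 1002 and 963 kb in the lists at 0 h and over 989 and 941 kb at 24 h, so the groups overlapped. The means were 982 kb ± 27.2 (SD, n = 2) at 0 h, 1007 kb ± 32.7 at 2 h, 1030 kb ± 16.9 at 6 h, 1022 kb ± 5.39 at 12 h, and 965 kb ± 34.0 at 24 h, and no test of the total was made. The spans held 345 and 346 peaks at 0 h and 342 in both lists at 24 h. The covered length was 35.4% to 37.8% of the spans in the means of the 5 time points, and 2.14% to 2.24% of the length covered by the whole lists.

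To ask which stretches changed in length, the covered length of each span was compared between 24 h and 0 h with limma on log2(covered bp + 200), with Benjamini-Hochberg adjustment over all 4515 stretches and an adjusted p under 0.05 as the threshold. Of the 96, 9 passed, 4 longer and 5 shorter at 24 h, beside 12.0% of all stretches tested (5.27% longer and 6.73% shorter). With lengths scaled by the median peak length of each list, 17 passed, 3 longer and 14 shorter, and with only the lists at 0 and 24 h, 2 passed, 1 in each direction. The median log2 difference was -0.01 for the clustered stretches and -0.02 for all. The rule kept only regions with a peak in all 10 lists, which bars the full gain or loss of a constituent, so no comparison is drawn from this count. The count was 3 without 0 h replicate 1, 5 without 0 h replicate 2, 5 without 24 h replicate 1, and 4 without 24 h replicate 2.

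Of the shorter stretches, the one nearest to Rapgef2 (a Rap exchange factor gene, 113597 bp away) covered 12698 and 12297 bp at 0 h and 8251 and 9584 bp at 24 h (-0.48 ± 0.08 on the log2 scale, SE, limma adjusted p = 0.00947). Its values at 12 h, 10642 and 11082 bp, lay between those groups. The stretch near Pdcd1lg2, the PD-L2 gene, overlapped its neighbor Cd274, the PD-L1 gene (chr19:29382252-29403891). It covered 11024 and 10709 bp at 0 h, 8927 and 8853 bp after 2 h, and 7676 and 7673 bp at 24 h (-0.49 ± 0.09, limma adjusted p = 0.0114). Most of that shortening was thus present at 2 h. The Cited2 stretch (chr10:17548198-17576586), 146632 bp from the gene of a CBP/p300-binding transcriptional regulator, covered 8963 and 9015 bp at 0 h and 6858 and 6589 bp at 24 h (-0.41 ± 0.08, limma adjusted p = 0.0131). The stretch near Map7, a microtubule-binding protein gene, lay within Map3k5 (chr10:20111426-20138098). It covered 7527 and 8016 bp at 0 h and 6228 and 5900 bp at 24 h (-0.35 ± 0.08, limma adjusted p = 0.026). Zfp217 covered 25583 and 22487 bp at 0 h and 19519 and 20024 bp at 24 h (-0.28 ± 0.07, limma adjusted p = 0.0452). In all 5, both values at 24 h were below both at 0 h.

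Of the longer stretches, the one near Ppm1b, a serine/threonine phosphatase gene (chr17:84925332-84943820), covered 6851 and 5841 bp at 0 h and 9611 and 8566 bp at 24 h (0.51 ± 0.10, limma adjusted p = 0.0159). E130308A19Rik covered 6854 and 6778 bp at 0 h, 10369 and 9896 bp after 6 h, and 10396 and 9291 bp at 24 h (0.52 ± 0.12, limma adjusted p = 0.0285). Its length at 6 h was already that of 24 h. The stretch named for Gm45521 covered 9105 and 7873 bp at 0 h, 14000 and 14918 bp after 12 h, and 13599 and 10676 bp at 24 h (0.50 ± 0.13, limma adjusted p = 0.0429), so it was longest at 12 h. With only the higher-scoring peaks (those at or over the median of the pooled scores) its difference was of the opposite sign (-2.79, limma adjusted p = 0.34). The stretch near Slc20a1, a sodium-phosphate cotransporter gene (chr2:129224025-129242288), covered 8365 and 6471 bp at 0 h and 11284 and 10259 bp at 24 h (0.54 ± 0.15, limma adjusted p = 0.0482). Its difference, too, was of the opposite sign with only the higher-scoring peaks (-2.19, limma adjusted p = 0.543).

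**Figure D2:**
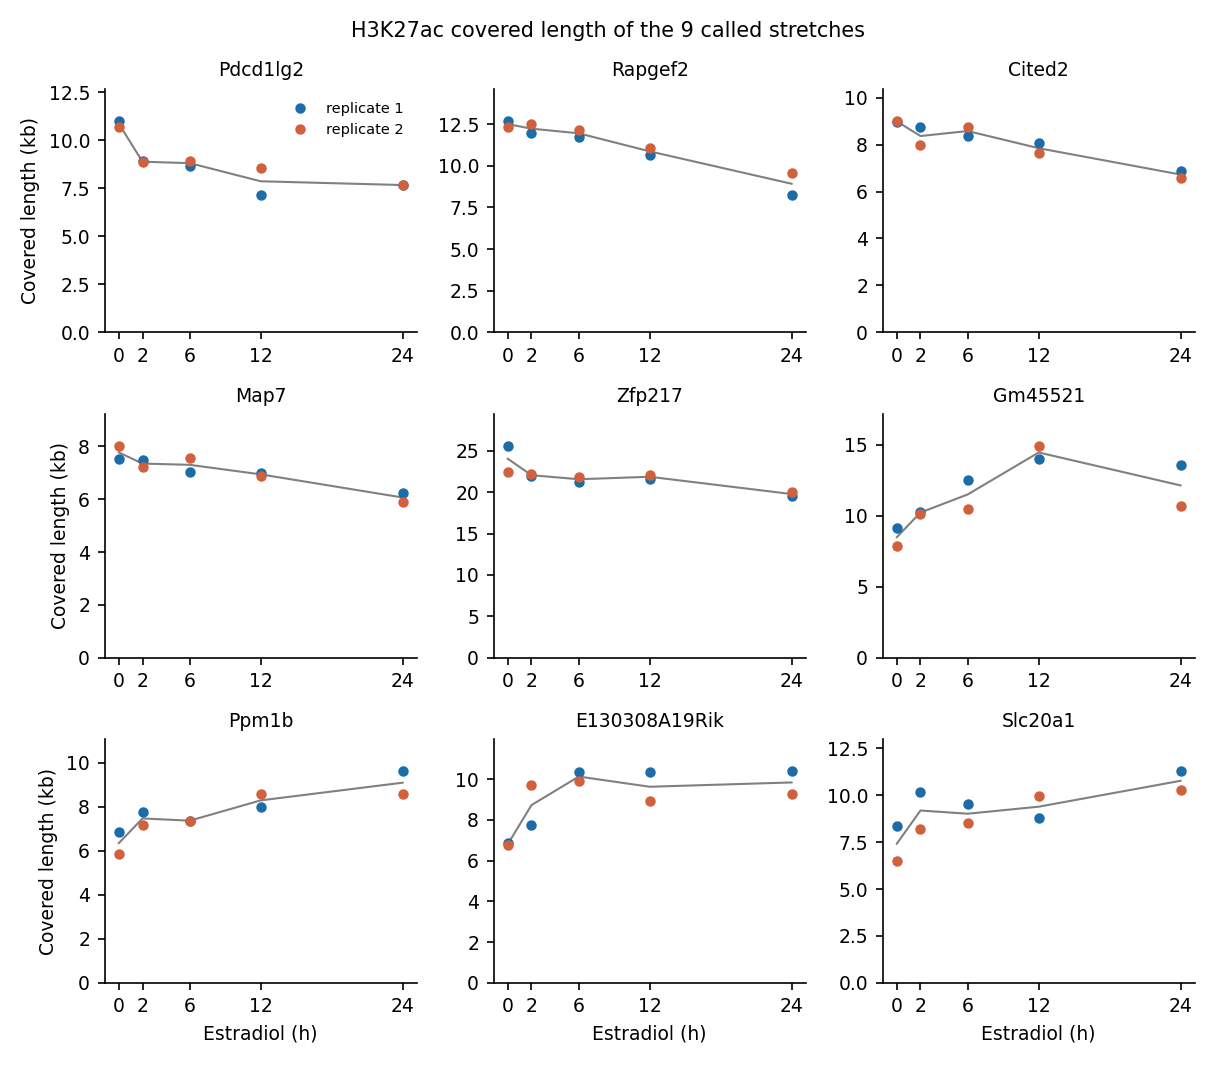
H3K27ac covered length in kb (y axis, from 0) against hours of β-estradiol (x axis) for the 9 clustered stretches that passed the test. Points are the 2 replicates and the line joins their means. In each panel both points at 24 h lie on 1 side of both points at 0 h, below in the first 5 panels and above in the last 4.

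Among the other stretches with most regions, none passed. Dennd1a covered 23850 and 19921 bp at 0 h, 25796 and 27779 bp after 2 h, and 19501 and 16914 bp at 24 h. It was longest at 2 h and shortest at 24 h. Cradd covered 19049 and 15543 bp at 0 h and 19930 and 20926 bp at 24 h, and Pdia4 covered 20213 and 20016 bp at 0 h and 20017 and 20008 bp at 24 h. Sgms1 covered 15094 and 15549 bp at 0 h and 15709 and 15747 bp at 24 h, and with only the higher-scoring peaks it was shorter (-0.44, limma adjusted p = 0.013). Of the stretches near listed genes, Igf1r covered 12534 and 12777 bp at 0 h and 17712 and 13196 bp at 24 h (0.27 ± 0.12, limma adjusted p = 0.199). Zeb2 covered 6098 and 5910 bp at 0 h and 7359 and 7672 bp at 24 h (0.31 ± 0.16, limma adjusted p = 0.263). Ccnd3 covered 13283 and 12725 bp at 0 h and 14441 and 14162 bp at 24 h (0.14 ± 0.07, limma adjusted p = 0.265). At Incenp, beside Fth1, the values were 17012 and 16360 bp at 0 h and 13159 and 14664 bp at 24 h (-0.26 ± 0.08, limma adjusted p = 0.0726). At these 4 the groups did not overlap, and none passed the threshold. At Cbfa2t3 the groups overlapped, with 12337 and 11537 bp at 0 h and 12539 and 10858 bp at 24 h.

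The constituents were also tested singly. In simulated data only 32% of log2 changes of 1 were recovered among all 21011 regions, many of which were missing from some lists. The recovery among constituents alone was not measured. An uncalled neighbor of a called constituent may still have changed too. In the same test over all 21011 merged regions with a peak in 2 or more lists, 16 of 330 constituents (4.85%) passed, 7 longer and 9 shorter. Of all regions, 6.32% passed (3.30% longer and 3.02% shorter). As above, the rule used these lists and no comparison is drawn from the count. Regions are numbered along the chromosome. The 16 lay in 15 stretches, and the Pdcd1lg2 stretch alone held 2, both shorter. No other stretch could therefore hold calls in both directions. In 32 of 96 stretches all constituents had log2 differences on the same side of 0, a count that was not tested. Of the stretches with a called constituent, Rapgef2, Cited2, Zfp217, Nr1d1, Ppm1b, and Slc20a1 were among these. The difference between the highest and lowest constituent of a stretch had a median of 0.50 on the log2 scale.

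Region 3 near Pdcd1lg2 (chr19:29399392-29403891, between genes) covered 4420 and 4498 bp at 0 h, 2466 and 2509 bp after 2 h, and 2404 and 2378 bp at 24 h (-0.85 ± 0.07, limma adjusted p = 0.000969). Region 1 (chr19:29382252-29386519, over an exon of Cd274) covered 4247 and 3937 bp at 0 h, 3960 and 3857 bp after 2 h, and 2795 and 2609 bp at 24 h (-0.56 ± 0.07, limma adjusted p = 0.00495). The 2 regions thus shortened at different times. Region 1 near Rapgef2 (chr3:79001152-79004518) covered 3358 and 3003 bp at 0 h and 1298 and 1591 bp at 24 h (-1.04 ± 0.10, limma adjusted p = 0.00195). Region 3 near Ugcg, the glucosylceramide synthase gene (chr4:59273412-59279339), covered 5878 and 5315 bp at 0 h, 2478 and 4838 bp after 2 h, and 1684 and 1412 bp at 24 h (-1.73 ± 0.37, limma adjusted p = 0.0442). At 2 and 6 h its replicates were far apart, with 3070 and 5827 bp at 6 h.

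In the other direction, region 2 near Ubap1, a gene of endosomal sorting (chr4:41385680-41389772), covered 1831 and 1573 bp at 0 h and 3640 and 3580 bp at 24 h (1.01 ± 0.16, limma adjusted p = 0.0117). Its neighbor, region 1 of the stretch, covered 2139 and 2167 bp at 0 h and 1282 and 1138 bp at 24 h and did not pass the threshold (-0.74 ± 0.26, limma adjusted p = 0.162). Region 2 near Ppm1b (chr17:84932763-84936310) covered 1793 and 1387 bp at 0 h and 3037 and 3283 bp at 24 h (0.92 ± 0.13, limma adjusted p = 0.00696). At Cbfa2t3 region 3 (chr8:122734084-122737607, in an intron of Gm20388) covered 1586 and 1934 bp at 0 h and 2832 and 2898 bp at 24 h (0.65 ± 0.11, limma adjusted p = 0.0171). Region 1 of that stretch, nearest to the TSS, covered 7117 and 5949 bp at 0 h and 4774 and 3503 bp at 24 h (-0.64 ± 0.18, limma adjusted p = 0.100). Region 2 had the same sign as region 3 (0.35 ± 0.10, limma adjusted p = 0.105). The parts of this stretch thus had values of opposite sign, of which only that of region 3 passed. Where only peaks at or above the pooled median of the scores were used, the whole Cbfa2t3 stretch was longer at 24 h (1.63, limma adjusted p = 0.00392).

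**Figure D3:**
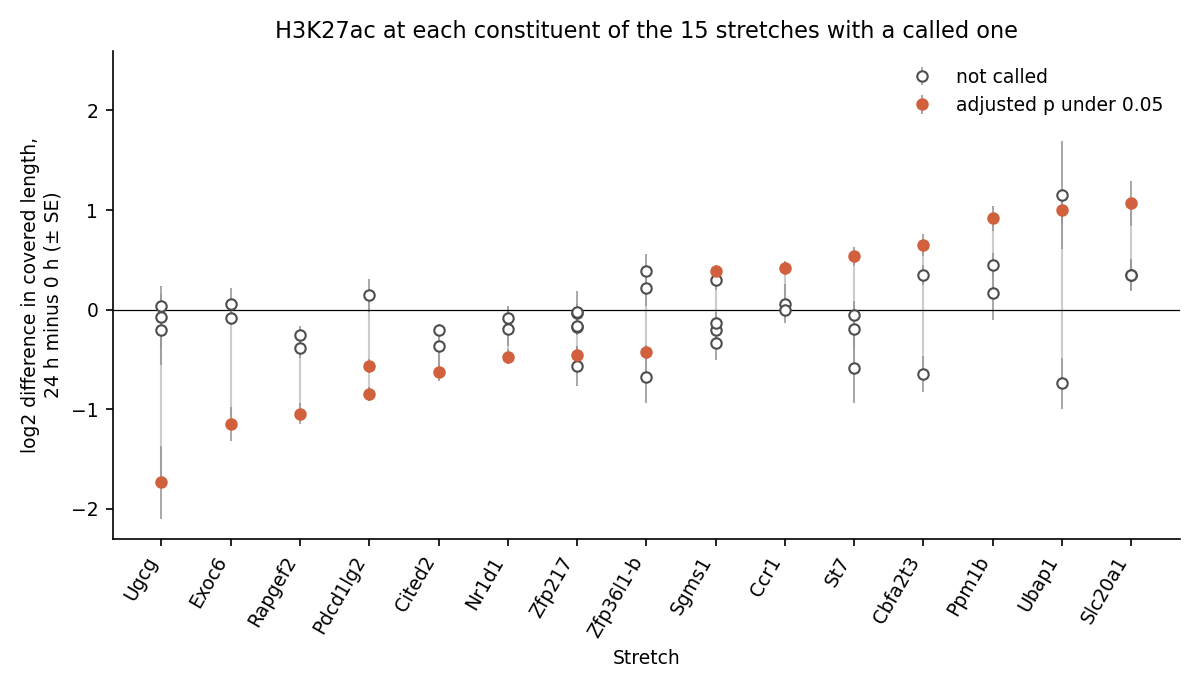
Log2 difference in H3K27ac covered length, 24 h minus 0 h (y axis), for every constituent of the 15 stretches that held a called constituent (x axis). Filled points passed at an adjusted p under 0.05, open points did not, and bars are standard errors. Called constituents range from -1.73 at Ugcg to 1.07 at Slc20a1, with uncalled neighbors near 0 or of the opposite sign in stretches such as Ugcg, St7, and Cbfa2t3. In Rapgef2, Cited2, Zfp217, Nr1d1, Ppm1b, and Slc20a1 all constituents lie on the same side of 0.

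The rule made every distal region present in all 10 lists a constituent, so only promoter regions and regions missing from some list could lie between constituents, and what follows is a description. Of the 96 stretches, 81 held no further H3K27ac region between their constituents in any list, and 15 held 20 regions, of which 2 lay within 2 kb of a TSS and 18 were distal and present in fewer than 10 lists. None of the 20 was absent in both lists at 0 h and present in both at 24 h, and 3 (in the Dennd1a, Incenp, and Csnk1a1 stretches, named after their values were seen) showed the reverse. Over all 11082 regions of the series in fewer than 10 lists, 833 had been gained and 1015 lost in this sense. The length covered between constituents was 23.9 and 21.4 kb at 0 h and 16.7 and 15.5 kb at 24 h, without overlap, a difference of -6.59 kb. With only H3K27ac peaks that scored in the upper part of the pooled lists (at least the median), it was 1.19 kb, of the opposite sign.

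H3K4me3, which the rule did not use, was present at most clustered stretches. A peak lay in the span in all 10 lists for 56 of 96 stretches (58.3%, 48.3% to 67.7%), in 1 to 9 lists for 25, and in none for 15. The share was 52.7% (48.1% to 57.3%) for stretches of 2 regions and 35.7% (34.3% to 37.2%) for the shorter 1-region stretches. By constituent, 97 of 330 (29.4%, 24.7% to 34.5%) had H3K4me3 in all 10 lists, against 32.1% (29.2% to 35.3%) of the regions of 2-region stretches and the same 35.7% of single regions. The difference between these shares was not tested.

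The length covered by H3K4me3 in the clustered stretches was lower in both lists at 24 h than in both at 0 h. The 96 spans were covered over 228 and 253 kb in the lists at 0 h and over 193 and 192 kb at 24 h, and no test of the total was made. The means were 241 kb ± 17.4 (SD, n = 2) at 0 h, 212 kb ± 23.6 at 2 h, 199 kb ± 11.3 at 6 h, 194 kb ± 1.54 at 12 h, and 192 kb ± 0.779 at 24 h. The number of constituents with an H3K4me3 peak was 148 and 161 at 0 h and 123 and 118 at 24 h. Between 91.5% and 94.3% of the covered length lay in the constituents in each list. The whole lists covered 31224 and 32901 kb at 0 h and 30458 and 30793 kb at 24 h. As a share of the list, the spans took 0.731% and 0.768% at 0 h and 0.632% and 0.622% at 24 h, again without overlap.

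Of the 78 clustered stretches with H3K4me3 in 2 or more lists, 6 passed the limma test of H3K4me3 covered length, all shorter at 24 h. Of all 2578 stretches tested, 4.89% passed (0.388% longer and 4.50% shorter). The 7.69% of the clustered stretches that passed was thus near the background. The median log2 difference was -0.36 for the 78 clustered stretches, -0.23 for 336 stretches of 2 regions, -0.12 for 2164 of 1 region, and -0.13 for all. The difference was below 0 in 66 of the 78 (84.6%), beside 71.3% of all. The count of 6 was 4 without 0 h replicate 1, 2 without 0 h replicate 2, 1 without 24 h replicate 1 and 2 without 24 h replicate 2, and 0 with only peaks that scored at least the pooled median, where 10 of the stretches could be tested with limma and 1 had an unadjusted p under 0.05.

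The stretch near Ikzf2, the gene for Helios (chr1:69494645-69518875), had 2796 and 4222 bp of H3K4me3 at 0 h and 1502 and 1479 bp at 24 h (-1.11 ± 0.21, limma adjusted p = 0.0311). Most of the decrease lay in region 3, with 1346 and 1706 bp at 0 h and no peak at 24 h, while region 1 held 1450 and 1817 bp at 0 h and 1502 and 1479 bp at 24 h. The Ap3b1 stretch (chr13:94510878-94538882), inside the gene for a subunit of the AP-3 adaptor, had 1718 and 3372 bp at 0 h, 733 and 840 bp after 2 h, 1381 and 1296 bp after 12 h, and 598 and 585 bp at 24 h (-1.73 ± 0.28, limma adjusted p = 0.016). The Cand1 stretch (chr10:119061646-119099258), 140045 bp from a gene of cullin ligase exchange, had 3517 and 3121 bp at 0 h, 3046 and 3102 bp after 2 h, 2905 and 1910 bp after 6 h, 2137 and 1772 bp after 12 h, and 1672 and 1540 bp at 24 h (-0.96 ± 0.18, limma adjusted p = 0.03). Its mean was lower at each later time, while Ap3b1 was already low at 2 h and higher again at 12 h.

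The second of the 2 stretches nearest to Zfp36l1, a gene of AU-rich mRNA decay (chr12:79825713-79867392), had 1967 and 2457 bp at 0 h and 1369 and 1239 bp at 24 h (-0.68 ± 0.14, limma adjusted p = 0.0452). At 24 h all of it lay in region 4. This stretch was named after its values were seen. At Kat6b, a histone acetyltransferase gene that holds its stretch (chr14:21536004-21563283), H3K4me3 covered 1599 and 796 bp at 0 h, 425 and 0 bp after 12 h, and no base at 24 h (limma adjusted p = 0.046). The stretch near Chsy1, a chondroitin synthase gene (chr7:66175446-66201111), had 668 and 1140 bp at 0 h, no peak at 2 h, 458 and 538 bp after 6 h, and no peak at 12 or 24 h (limma adjusted p = 0.00674). These are short peaks that come and go between lists. None of the 6 was called in the H3K27ac test of whole stretches, but region 4 of Zfp36l1-b was called shorter in that of single regions, with 4822 and 4629 bp of H3K27ac at 0 h and 3659 and 3300 bp at 24 h (-0.42 ± 0.07, limma adjusted p = 0.015).

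In the presence of peaks, 7 of 96 stretches (7.29%, 3.58% to 14.3%) had H3K4me3 in both lists at 0 h and in neither at 24 h, beside 5.23% (4.62% to 5.92%) of all 4515 stretches. These were Pou2f1, Igsf3, Chsy1, Zfp36l1-a, Kat6b, Mtx2, and Tmem260. The reverse was seen at Suco alone, which is 1.04% (0.184% to 5.67%) beside 0.288% of all. These stretches were named after their values were seen.

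**Figure D4:**
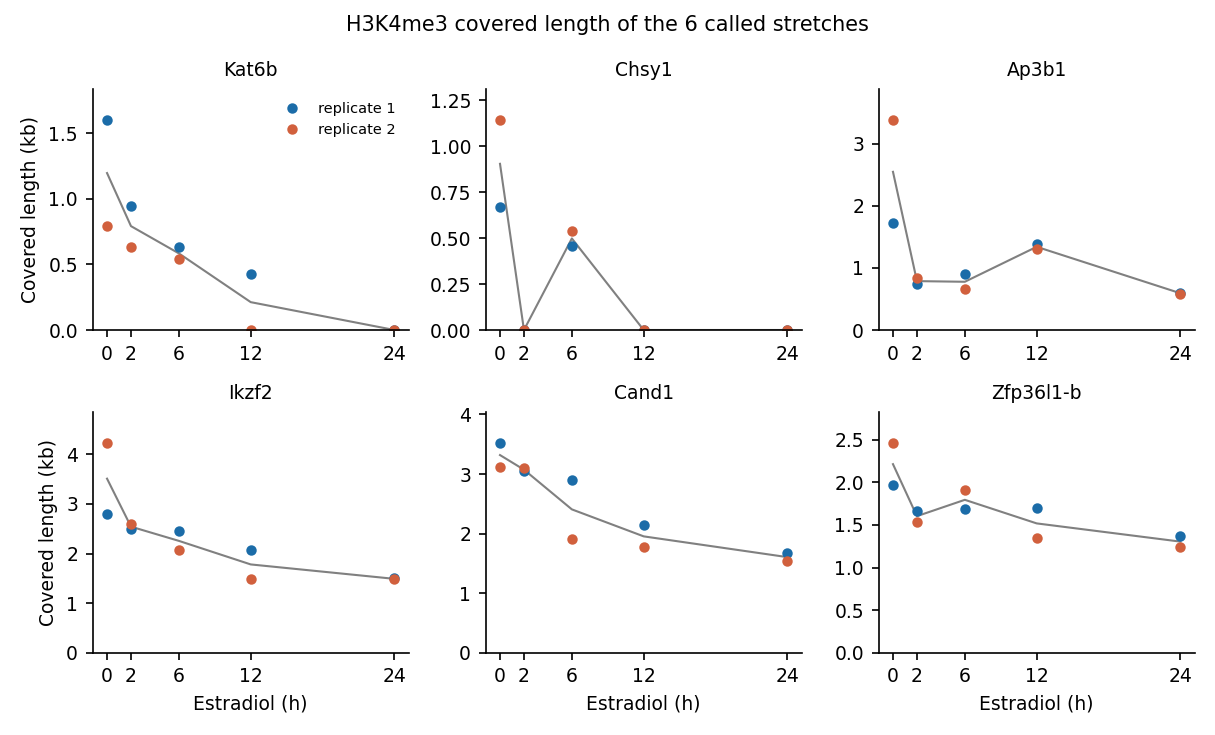
H3K4me3 covered length in kb (y axis, from 0) against hours of β-estradiol (x axis) for the 6 clustered stretches that passed the test. Points are the 2 replicates and the line joins their means. All 6 end below their values at 0 h, and Kat6b and Chsy1 end with no H3K4me3 peak in either list.

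CTCF was examined at the edges of the clustered stretches. A peak within 5 kb of an edge was found at 73 of 192 edges at 0 h (38.0%, 31.5% to 45.1%) and at 90 of 192 at 24 h (46.9%, 39.9% to 53.9%). For 2-region stretches the shares were 36.7% (33.6% to 39.9%) and 46.7% (43.4% to 49.9%). For 1-region stretches they were 39.2% and 46.5%, but both windows of a short region often hold the same peak, so that its edges are not separate observations. No CTCF peak at either edge was found for 40.6% (31.3% to 50.6%) of clustered stretches at 0 h and 34.4% (25.6% to 44.3%) at 24 h, for 43.8% and 31.0% of 2-region stretches, and for 55.5% and 47.6% of 1-region stretches, whose windows together cover less sequence. The median distance from an edge to the nearest CTCF peak was 7944 bp in the 0 h list and 5486 bp in the 24 h list, against 8750 and 6042 bp for 1-region stretches. The 24 h list holds 41473 peaks and the 0 h list 33193, with 1 list each, so time and list cannot be told apart.

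Both edges had a peak in 16 of 96 stretches at 0 h (16.7%, 10.5% to 25.4%), in 27 at 24 h (28.1%, 20.1% to 37.8%), and in 15 at both times. With the CTCF lists cut to an equal number of top-scoring peaks, the share at 24 h was 17.7%. The 2-region stretches had 17.2% and 24.3%. The 33.9% and 40.5% of 1-region stretches are not comparable, for the same reason. Among the stretches with most regions, Klhl25 and Tex14 had both edges at both times. Cand1, 1 of the 6 with shortened H3K4me3, did too, with peaks 3944 and 1288 bp from its edges at 0 h and 3759 and 1078 bp away at 24 h. Peaks near Cbfa2t3 lay 1527 and 892 bp from the edges at 0 h, and the nearest ones at 24 h were 9934 and 17389 bp away. These 0 h peaks scored low, 79.21 and 54.58, and those of Tex14 scored 60.38 and 62.84 at 0 h and 68.68 and 51.64 at 24 h. Scores at Klhl25 ran from 58.33 to 198.19 and at Cand1 from 61.4 to 354.33. The lowest score was 50.01 in the 0 h list (median 119.8) and 50 in the 24 h list (median 149.98). With 1 list per time, a change at Cbfa2t3 was not tested.

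Between edges at both times, 67 of 192 were constant (34.9%), 23 had a peak at 24 h only (12.0%, 8.12% to 17.3%) and 6 at 0 h only (3.13%, 1.44% to 6.65%). For 2-region stretches, 11.2% of edges had a peak at 24 h only and 1.23% at 0 h only. For 1-region stretches, whose edges are not separate observations, 9.14% had a peak at 24 h only and 1.89% at 0 h only. CTCF peaks at clustered edges stood at a median of the 47.8 percentile of scores at 0 h and 48.5 at 24 h, against 56.4 and 56.7 at the edges of 1-region stretches.

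CTCF was also found inside the stretches, and more densely in the constituents than between them. At 0 h 91 peak midpoints lay in constituents (0.712 per 10 kb) and 30 between them (0.207 per 10 kb), and at 24 h 106 (0.830) and 43 (0.297). Of 96 stretches, 67 held a CTCF peak in the span at 0 h and 73 at 24 h, with up to 9 and 10 in 1 stretch. In the first 5 kb outside the edges the density was 0.271 and 0.333 per 10 kb at 0 and 24 h, and in the next 5 kb 0.438 and 0.552. In 1-region stretches it was 0.284 and 0.350 in the first 5 kb and 0.299 and 0.382 in the next. Further out the values of clustered stretches varied between 0.302 and 0.448 at 0 h and between 0.333 and 0.583 at 24 h with no steady trend, on counts of 29 to 56 peaks per bin.

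**Figure D5:**
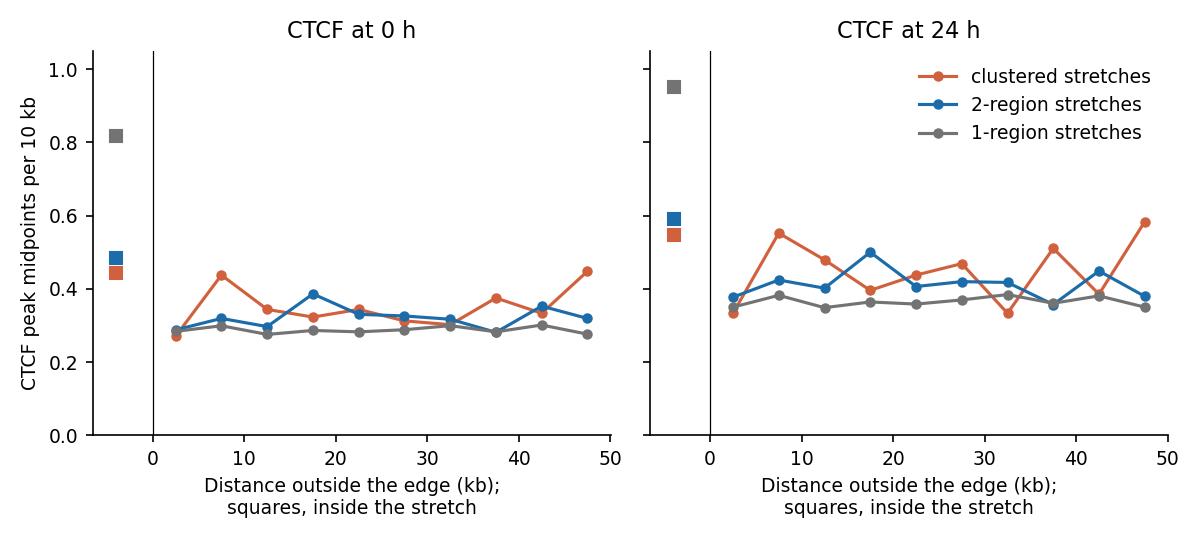
CTCF peak midpoints per 10 kb (y axis, from 0) in bins of 5 kb outside the edges (x axis, kb) at 0 h (left) and 24 h (right), with squares for the density inside the stretch, for clustered stretches and for stretches of 2 and 1 regions. Inside values exceed those of the first bin in all groups, and the squares of 1-region stretches, at 0.818 and 0.952, are higher than those of clustered stretches, at 0.444 and 0.546.

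The orientation of the CTCF core was counted at edges whose peaks held it on 1 strand. At left edges the core was on the plus strand at 13 and on the minus strand at 12 at 24 h, and at right edges on the plus strand at 11 and on the minus strand at 11. At 0 h the counts were 11 and 9 at left edges and 9 and 11 at right edges. In 8 stretches both edges could be oriented at 24 h, and 2 of them pointed toward each other, 1 away, and 5 in the same direction. At left edges at 24 h, 22 of 51 edges with a peak held no core and 4 held it on both strands. The share of all CTCF peaks with a core was 62.9% at 0 h and 64.5% at 24 h. No test was made on these counts.

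The most frequent full sequence of the core at the clustered edges was CCAGAAGAGGGC, the run seen above at Ccnd3, Tex14, and Icam2. It was found in 27 of 61 edge peaks with a core at 24 h (44.3%, 32.5% to 56.7%) and in 22 of 49 at 0 h (44.9%, 31.9% to 58.7%). Among all CTCF peaks with a core it was found in 41.6% at 24 h and 34.8% at 0 h. The intervals at the clustered edges include the values of all peaks. As background, the B2 family of short interspersed repeats in the mouse is known to carry CTCF motifs.

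The constituents had the motif content of other constant distal regions. In 1 kb windows at the middle of the longest run of bases covered in the most lists (all 10, except in 2 of 330 constituents and 46 of 3971 single regions that had no base in all 10), counted on both strands, a GATA site (the letters AGATAA, also with T in place of the first or G in place of the last letter) was found in 290 of 330 constituents (87.9%, 83.9% to 91.0%), in 89.4% of 3971 single regions, and in 57.4% of 8020 constant regions within 2 kb of a TSS. The TAL1-GATA composite, whose last 4 letters can overlap a GATA site, was found in 67 (20.3%), in 18.7%, and in 7.07%. The KLF motif CCNCNCCC was found in 68.2%, 64.9%, and 87.8%, the RUNX motif TGTGGTT in 22.1%, 26.0%, and 12.7%, and the NFE2/AP-1 motif TGANTCA in 31.5%, 29.5%, and 15.3%. The CTCF core was found in 16.7%, 17.1%, and 29.9%. Median GC content was 46.7% in constituents, 46.5% in single regions, and 57.7% near TSSs. Constituents and single regions thus lay close for all 6 motifs, and both were far from the promoter regions, which differ in GC content.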

How the data were processed

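Peak lists of H3K27ac, H3K4me3, and CTCF from G1ER cells were used as the authors deposited them, with peaks called per library and a deposited score for each peak. The tests used the length in bp covered by peaks. Per the submitters' processing notes and the study's methods, histone reads were aligned to mm10 with Bowtie2 and peaks were called with MACS without its model step. The MACS version, control, and threshold, and the CTCF methods, are not given in the sources used here. The sample descriptions name a human build, but 21 of 22 chromosome names in the lists are in GRCm38 and no peak there passed a chromosome end. Scores ranked or filtered peaks only, because depth is unknown.

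Overlap meant at least 1 bp. Covered lengths were compared with limma 3.58.1 (R 4.3.3, lmFit and eBayes with trend) over all 10 lists of a mark, with 1 mean per time point. The fits were also tested on simulated data. Of simulated log2 changes of 1 and 2, 85% and 100% were recovered among 4515 H3K27ac stretches, 53% and 66% among 2578 H3K4me3 stretches, and 32% and 60% among 21011 regions. Shares have Wilson 95% intervals. TSSs came from GENCODE M21 and sequences from RefSeq GRCm38.p6.

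The members, gene lists, and tests were chosen with earlier results of these data known. Named were the 10 stretches with most regions (ties by summed length), up to 5 called stretches per direction and mark, and listed genes within 50 kb of, or overlapping, a stretch. Zfp36l1-b (the 1 called H3K4me3 stretch past that limit), the single constituents, and the Icam2 and Kif2c edges were named after their values were seen. Same-numbered replicates did not deviate together (correlations -0.03 to 0.04 over 10 pairs of time points). The gene that overlaps 1 of the stretches is not reported here.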

Additional observations from a re-analysis of the deposited data

How the results depend on the processing

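Peak presence depends on depth and background, which are unknown, and 2 replicates per time point limit the tests. The number of stretches was 21 with a stitching distance of 5 kb, 189 with 20 kb, and 4 with only H3K27ac peaks that scored at least the pooled median. Of the comparisons of a count, a share or the gap difference with an alternative, 93 stayed within their margin and 23 did not. The margin was 1.5 times the count or the interval of the share. For the gap difference it was the larger SD of the gap length at 0 h or 24 h. Called H3K27ac stretches numbered 17 (3 longer, 14 shorter) with lengths scaled by the median peak length and 2 with only the lists at 0 h and 24 h, and 3 to 10 when single lists were left out. Called H3K4me3 stretches numbered 0 with only higher-scoring peaks, 3 with H3K4me3 in at least 5 lists, and 1 to 7 when single lists were left out. With the replicate block, 10 H3K27ac stretches, 4 H3K4me3 stretches, and 19 constituents were called, against 9, 6, and 16. The replicate numbers did not pair the lists. The share with CTCF at both edges at 24 h was 14.6% within 2 kb, 44.8% within 10 kb, 8.33% with CTCF peaks that scored at least the pooled median, 17.7% with equal numbers of top CTCF peaks, and 50.0% in the 4 stretches of higher-scoring H3K27ac peaks. At 0 h it was 7.29% within 2 kb, 37.5% within 10 kb, and 2.08% with CTCF peaks that scored at least the pooled median. The gap difference was 1.19 kb with higher-scoring peaks. For single stretches and regions, 626 values under an alternative stayed on the same side of the threshold, 140 fell below it, and 3 passed it. A change of sign was counted only for values that passed in the main test or under the alternative. In this sense 4 stretches changed sign with only higher-scoring peaks (features with such a peak in at least 2 lists). These were Gm45521 (-2.79), Slc20a1 (-2.19), Sgms1 (-0.44), and Cbfa2t3 (1.63). Stretches that passed in neither setting were not checked for sign. The cause was not tested. Leaving out single lists for the gap difference was added after seeing the data.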
